A study of Mus musculus with 30 samples.

Results

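Neuronal progenitor cells (NPCs) that lacked *Mbd3* and carried MBD2aΔGR, a form of MBD2a without its glycine-arginine (GR) stretch, were compared with *Mbd3* KO NPCs that carried no construct. The comparison held 6 libraries, 3 of each line, chosen by the line named in the sample labels. They are 6 of the 24 RNA-seq libraries and of the 30 samples of the series. All 16582 genes that passed a filter on low counts were compared, of 25400 genes in the count table. The question was how much of the *Mbd3* KO expression profile an MBD2a protein without this stretch reverses.

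Both lines came from mouse HA36CB1 embryonic stem cells (ESCs), which are of mixed 129 and C57BL/6 background, express the biotin ligase BirA and hold a site for recombinase-mediated cassette exchange. Both carried the *Mbd3* knockout, so the line without a construct was the control. In the MBD2aΔGR line a biotin-tagged construct had been placed at that site and was driven by the CAG promoter, a strong promoter that is active in most cell types. Full-length MBD2a, delivered in the same way, and wild type (WT) ESCs of the same background served as further references. Each library of these lines came from a clone derived separately, and all were harvested as NPCs on day 8 of neuronal differentiation from embryoid bodies treated with retinoic acid.

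The Nucleosome Remodeling and Deacetylase (NuRD) complex joins histone deacetylases and a CHD remodeling ATPase, and it contains either MBD2 or MBD3 but never both. MBD2 binds methylated CpG through its methyl-CpG binding domain, whereas MBD3 has largely lost this binding. The GR stretch lies in the N-terminal part of MBD2a, is a target of arginine methyltransferases and is absent from the shorter isoform MBD2b.

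Total counts per library lay between 33120415 and 38994029 for MBD2aΔGR and between 34446766 and 41444516 for *Mbd3* KO. At these totals, 3 reads correspond to between 0.0664 and 0.0921 CPM (counts relative to the TMM-scaled library total), a floor that covers counting error only. No 2 libraries of a line agreed within sampling noise. One MBD2aΔGR library, s18, stood apart from the other 2 of its line, s16 and s17. In s18, 875 genes lay more than 4-fold from the mean of the other 2 libraries, against 418 in s16 and 217 in s17. Within *Mbd3* KO these numbers were 642 for s04, 62 for s05 and 128 for s06. The median of 607 expressed genes on chromosome 1 also lay 0.35 log2 units below the other 2 *Mbd3* KO libraries in s04 and 0.28 above them in s06. Results that rest on s18 are given with and without it. Values per library are given in the order s04, s05 and s06 for *Mbd3* KO and s16, s17 and s18 for MBD2aΔGR.

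*Mbd3*, the gene knocked out (chr10:79855284-79862295, mm9), had 34.2, 73.8 and 69.1 CPM in *Mbd3* KO and 45.8, 42.02 and 86.4 CPM in MBD2aΔGR. The guide RNAs of the knockout targeted only part of its exons, so reads from the rest of the gene can remain. The 2 lines overlapped, and all 6 libraries lay below the WT libraries with 155, 149 and 157 CPM. The difference between the lines was not significant (log2 fold change -0.02, SE 0.271, adjusted p = 0.95, edgeR's quasi-likelihood test with Benjamini-Hochberg adjustment, as for all p-values here). *Mbd2*, to which reads of the construct can add, had 65.3, 64.2 and 70.9 CPM in *Mbd3* KO and 280.3, 451 and 700.2 CPM in MBD2aΔGR. The ranges did not overlap and *Mbd2* rose (log2 fold change 2.84, SE 0.223, adjusted p = 3.55e-08). In the line with full-length MBD2a it had 87.2, 86.3 and 67.02 CPM, a level near that of *Mbd3* KO, with the lowest library inside the *Mbd3* KO range. The libraries of MBD2t, the isoform without the coiled coil, and of MBD2a with a point mutation reached between 253 and 356 CPM. The RNA counts of these NPCs thus did not show the added construct that the label of the full-length line names. By western blot, the paper found equal levels of MBD2a and MBD2aΔGR protein in the ESC lines. That is protein at an earlier stage, and these counts are RNA of NPCs. The full-length line is called the line labelled MBD2a in what follows. The part of the difference in *Mbd2* RNA in any other result was not tested.

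In MBD2aΔGR, 4175 genes (25.2%) were called changed, which required an adjusted p below 0.05 together with a log2 fold change beyond 1 in either direction. Of all genes tested, 1635 (9.86%) were called higher and 2540 (15.3%) lower than in *Mbd3* KO. The 3 libraries of one line did not overlap those of the other for 3774 of the called genes and for 50.2% of all genes tested. The median log2 fold change of all genes was 0.08. It was -0.04 when libraries were scaled by their totals alone, so small shifts of a gene or a list have to be read against a difference of this size. In bulk samples, fewer cells of a type and less RNA per cell cannot be told apart. A fit of only the 6 libraries called 20.1% of its genes, 7% higher and 13.1% lower. With all 24 libraries, 3080 genes (18.6%) were called between MBD2aΔGR and the line labelled MBD2a, 856 (5.16%) between MBD2aΔGR and WT and 33.8% between *Mbd3* KO and WT. Of the genes tested against WT, 2.69% were called higher and 2.47% lower in MBD2aΔGR, and 0.0848% were called in a fit of the 6 libraries alone. Of the genes named here as called against WT, only *Cdh5* was also called in that fit. Without s18, 4776 genes were called against *Mbd3* KO and 121 against WT, without s16 the number against WT was 1914, and without the 3 MBD2t libraries, which come from 1 clone, it was 472. The count against WT thus rested on few libraries, and that against *Mbd3* KO did so to a smaller degree. Of 130 genes named by rule in what follows, 36 lie across from another gene model on the other strand. The strand setting of the counting is not given in the sources used here, so reads of these genes and of their antisense partners may not be separated.

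**Figure D1:**
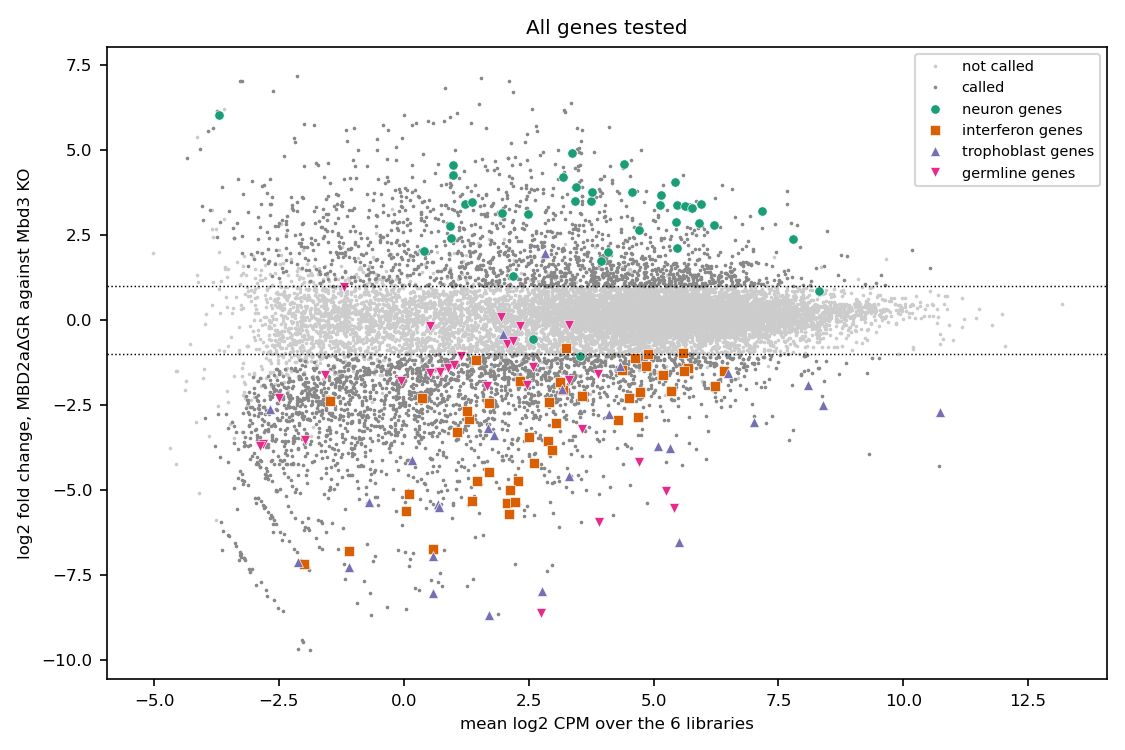
Log2 fold change of MBD2aΔGR against *Mbd3* KO (y axis) for all 16582 genes tested, against the mean log2 CPM over the 6 libraries (x axis). Dark grey points are called genes, dotted lines mark log2 fold changes of 1 and -1, and symbols mark genes of 4 lists. Neuron genes lie mostly above the upper line, and interferon, trophoblast and many germline genes below the lower one.

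The 8 largest rises among abundant, well separated genes were *Neurod4*, *Sp8*, *Neurog2*, *Msx3*, *Fabp7*, *Prdm13*, *Pax3* and *Zic1*. All 8 are genes of the developing nervous system, and all but *Fabp7*, a lipid-binding protein of radial glia, encode transcription factors. *Neurod4* (chr10:129705209-129717296), a proneural basic helix-loop-helix factor, had 0.143, 0.3098 and 0.264 CPM in *Mbd3* KO and 45.03, 28.9 and 28.5 CPM in MBD2aΔGR (log2 fold change 7.10, SE 0.635, adjusted p = 1.49e-07). *Sp8* (chr12:120084802-120091051), a zinc finger factor of the dorsal neural tube and forebrain, had 0.2001, 0.398 and 0.529 CPM and 63.3, 44.8 and 41.2 CPM (log2 fold change 7.02, SE 0.485, adjusted p = 6.31e-09). In both genes every MBD2aΔGR library lay far above every *Mbd3* KO library and close to the WT libraries, which had 45.8, 63.4 and 31.8 CPM for *Neurod4* and 43.05, 47.6 and 50.2 CPM for *Sp8*. The dorsal factors *Pax3*, *Msx3* and *Zic1* behaved less evenly. *Pax3* had 1.26, 1.28 and 1.22 CPM in *Mbd3* KO and 165, 89.2 and 19.97 CPM in MBD2aΔGR (log2 fold change 6.18, SE 0.554, adjusted p = 1.49e-07). *Msx3* had 1.34, 1.28 and 1.16 CPM and 185, 107 and 26.2 CPM (log2 fold change 6.39, SE 0.566, adjusted p = 1.25e-07). The lowest MBD2aΔGR value was that of s18 in both, several-fold under the other 2 libraries and yet above all 3 of *Mbd3* KO. *Zic1* had 0.858, 1.28 and 1.72 CPM in *Mbd3* KO and 164, 78.6 and 26.5 CPM in MBD2aΔGR. *Fabp7*, with 45.2, 30.2 and 8.199 CPM in MBD2aΔGR, and *Prdm13*, with 111, 51.2 and 16.1 CPM, had the same order of libraries as *Pax3*. By smallest p-value the rises were led by *Sp8*, *Ptprn2*, *Vit*, *Dll1* and *Sox3*. *Vit*, an extracellular matrix gene, rose from 0.172, 0.509 and 0.688 CPM to 31.2, 21.6 and 17.7 CPM (log2 fold change 5.65, SE 0.416, adjusted p = 1.56e-08), and *Ptprn2*, which encodes a protein of dense-core vesicles, from 1.43, 1.39 and 1.72 CPM to 23.3, 16.2 and 11.6 CPM (log2 fold change 3.49, SE 0.2204, adjusted p = 2.3e-09).

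**Figure D2:**
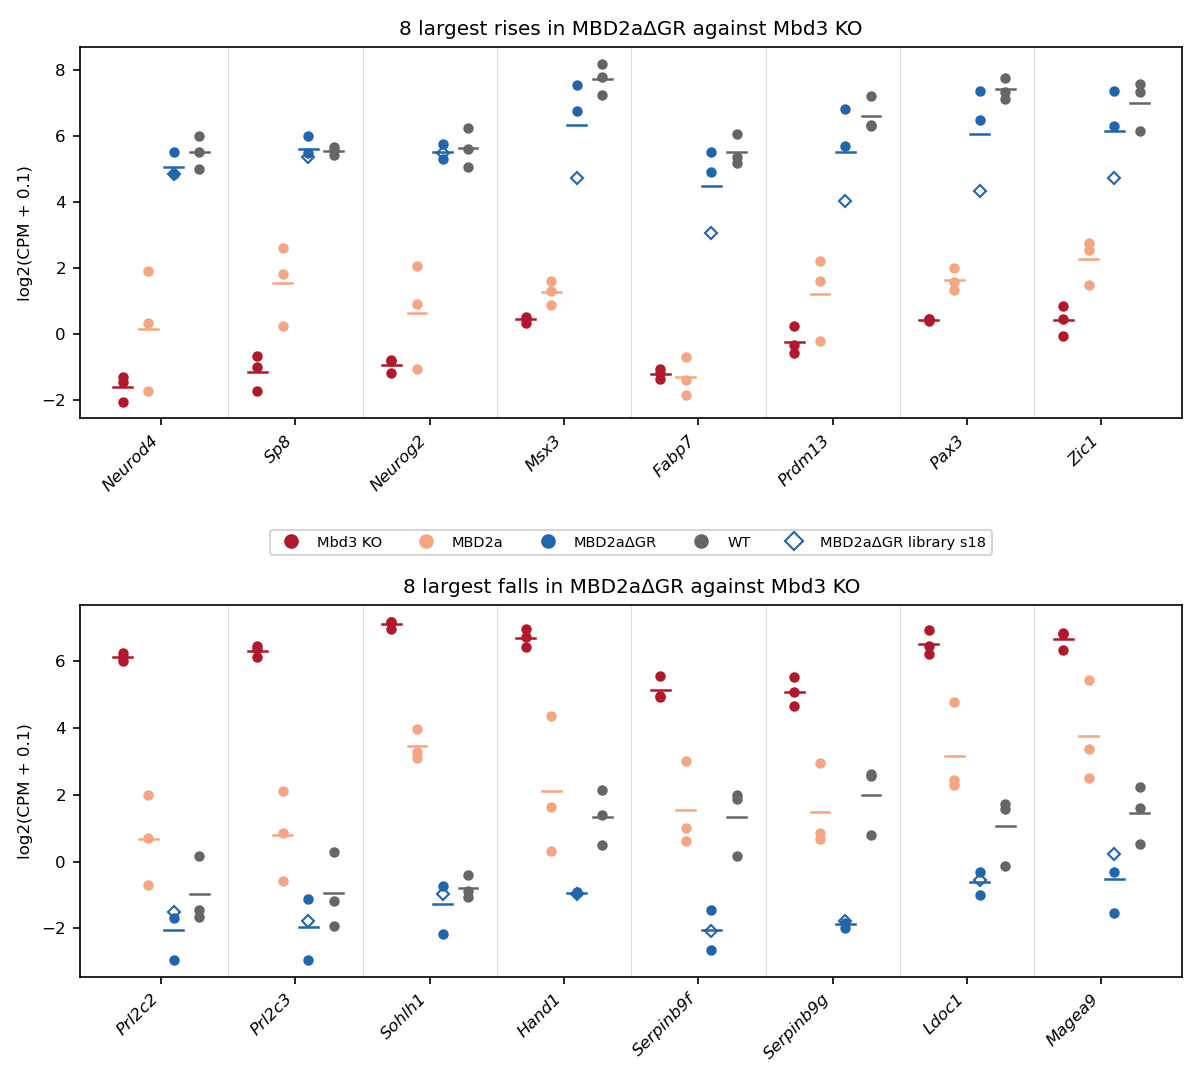
Expression as log2(CPM + 0.1) of the 8 genes with the largest rises (top) and falls (bottom), one symbol per library and a bar for the mean of the 3 libraries of a line. Open diamonds are library s18 of MBD2aΔGR, which is the lowest of its line for all 8 rises but *Neurog2*. For each of the 16 genes MBD2aΔGR and *Mbd3* KO do not overlap.

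Proneural factors start neuronal differentiation and switch on Delta ligands, which activate Notch receptors and their HES targets in neighbouring progenitors. Of 25 such genes and related regulators tested, 18 rose and 1 fell in MBD2aΔGR, beside 9.86% and 15.3% of all genes. The median log2 fold change was 2.14, beside 0.08 for all genes. Among the proneural factors, *Neurog1* (chr13:56351866-56353524) rose from 1.03, 1.86 and 1.96 CPM to 113, 80.5 and 49.5 CPM (log2 fold change 5.63, SE 0.567, adjusted p = 4.42e-07) and *Neurog2* from 0.343, 0.465 and 0.476 CPM to 53.5, 39.2 and 44.6 CPM (log2 fold change 6.72, SE 0.555, adjusted p = 5.78e-08). The Notch ligand *Dll1* had 2.03, 2.85 and 3.04 CPM in *Mbd3* KO and 121, 78.7 and 44.6 CPM in MBD2aΔGR (log2 fold change 4.94, SE 0.368, adjusted p = 1.75e-08). The receptor *Notch1* rose by a smaller factor, from 66.4, 52.8 and 46.5 CPM to 269.9, 174 and 92.04 CPM (log2 fold change 1.69, SE 0.314, adjusted p = 0.000243), and *Notch3* had a log2 fold change of 1.19 that did not pass the threshold in a fit of the 6 libraries alone. Of the effectors, *Hes5* had a log2 fold change of 5.71 and reached 65.7, 45.5 and 27.5 CPM, under the WT range of 87.8, 99.6 and 135 CPM, and it was called lower than WT (-1.22). Among other abundant members of the list, not all of them Notch effectors, *Hes6* (2.14) and *Id3* (1.98) rose. *Hes1* and *Id1* were not called, with log2 fold changes of 0.61 and 0.16. *Dll4*, a ligand used by endothelium as well as by neural progenitors, was the member that fell, from 11.3, 13.4 and 13.8 CPM to 6.08, 3.87 and 3.21 CPM (log2 fold change -1.55, SE 0.242, adjusted p = 4.67e-05). *Dll1*, *Notch1*, *Notch3*, *Hes5* and *Dll4* overlap genes on the opposite strand, and their values are uncertain to that degree.

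Neural progenitors are recognised by SOX and PAX factors and by the intermediate filaments *Nes* and *Vim*. Of 32 genes of this kind tested, 22 rose and 1 fell, beside 9.86% and 15.3% of all genes, and the median log2 fold change was 2.14. The label of the samples as NPCs was met by these markers in all 3 MBD2aΔGR libraries, while the *Mbd3* KO libraries had less of them. *Pax6* (chr2:105509053-105543317) had 3.52, 12.2 and 14.1 CPM in *Mbd3* KO, and its MBD2aΔGR values of 167, 151 and 148 CPM overlapped those of WT, 142, 168 and 197 CPM (log2 fold change 3.96, SE 0.485, adjusted p = 3.93e-06 against *Mbd3* KO). *Sox3*, a SOXB1 factor of neural progenitors, rose from 16.1, 19.7 and 16.8 CPM to 278, 183 and 137 CPM (log2 fold change 3.51, SE 0.266, adjusted p = 2.33e-08). The filament genes *Vim*, with 21.8, 98.1 and 92.7 CPM and 1016, 760.2 and 478 CPM, and *Nes*, with 58.9, 89.5 and 77.4 CPM and 315, 255 and 163 CPM, rose with log2 fold changes of 3.40 (SE 0.449) and 1.70 (SE 0.216). In these 4 genes the lines did not overlap, and s04 was the lowest *Mbd3* KO library in all of them. *Cdh2*, the neural cadherin, rose from 6.49, 47.7 and 45.99 CPM to 284, 207 and 114 CPM (log2 fold change 2.59, SE 0.563, adjusted p = 0.000984). The SOXB1 factor *Sox2*, which ESCs share with neural progenitors, had 218, 114 and 64.5 CPM and 326, 273 and 180.5 CPM. Its lines overlapped and it was not called (log2 fold change 0.98, adjusted p = 0.0128), and neither was *Meis2* (0.92, 0.058). *Emx2*, a dorsal forebrain factor, was the only member called lower (log2 fold change -1.66, SE 0.622, adjusted p = 0.0351), though its lines overlapped and it was not called in a fit of the 6 libraries alone. Without s18, 26 of the 32 genes rose and 0 fell.

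Genes of young neurons rose almost throughout, with 36 of 39 called higher and 1 called lower, beside 9.86% and 15.3% of all genes. The median log2 fold change was 3.32. *Tubb3*, the neuronal tubulin, had 83.6, 93.97 and 125 CPM in *Mbd3* KO and 790.4, 443 and 345 CPM in MBD2aΔGR (log2 fold change 2.38, SE 0.377, adjusted p = 5.4e-05). *Dpysl3*, which acts in axon growth, rose from 27.3, 62.1 and 66.7 CPM to 780.2, 455 and 217 CPM (log2 fold change 3.22, SE 0.449, adjusted p = 1.52e-05). *Map2*, a microtubule protein of dendrites, rose from 9.38, 25.8 and 32.5 CPM to 416, 225 and 74.7 CPM (log2 fold change 3.40, SE 0.553, adjusted p = 7.15e-05) and *Kif5c*, a neuronal kinesin, from 23.2, 33.4 and 32.5 CPM to 327, 189.6 and 107 CPM (log2 fold change 2.81, SE 0.442, adjusted p = 5.17e-05). In all 4 the lines did not overlap, s16 was the highest MBD2aΔGR library and s18 the lowest. *Ncam1*, which encodes the surface marker CD56, rose from 14.2, 25.9 and 29.6 CPM to 159, 93.3 and 48.2 CPM (log2 fold change 2.11, SE 0.4404, adjusted p = 0.000707). *Cd24a*, the other surface marker used to follow this differentiation, had 183, 261 and 276 CPM and 511, 406 and 375 CPM. Its ranges did not overlap and its adjusted p was 0.000703, but the log2 fold change of 0.84 was under the fold threshold. *Chga*, a granule protein of neuroendocrine cells, was the member that fell (log2 fold change -1.06, SE 0.3501, adjusted p = 0.0184). *Slc17a6*, a vesicular glutamate transporter, had no read in any *Mbd3* KO library and 0.0921, 0.268 and 0.277 CPM in MBD2aΔGR, which makes it at least 2.75-fold higher when 3 counts per library are taken for *Mbd3* KO. With this gene at its bound, the median of the list was 3.29. Relative to WT, the median log2 fold change of the neuron genes was -0.81, with *Isl1*, a factor of motor neurons, called higher (1.49) and *Rbfox3*, which encodes the neuronal marker NeuN, called lower (-1.97).

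These shifts can also be read library by library from the mean log2(CPM + 0.1) of each list. For the neuron genes it was 1.51, 2.79 and 2.97 in *Mbd3* KO, 6.05, 5.30 and 4.70 in MBD2aΔGR and 6.56, 6.35 and 5.28 in WT. For the neural progenitor genes it was 2.33, 3.15 and 3.12, 6.05, 5.49 and 4.79 and 6.20, 6.14 and 5.60 in the same order. The MBD2aΔGR libraries s16 and s17 thus lay inside the WT range of the neuron genes, and s18 lay below it.

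**Figure D3:**
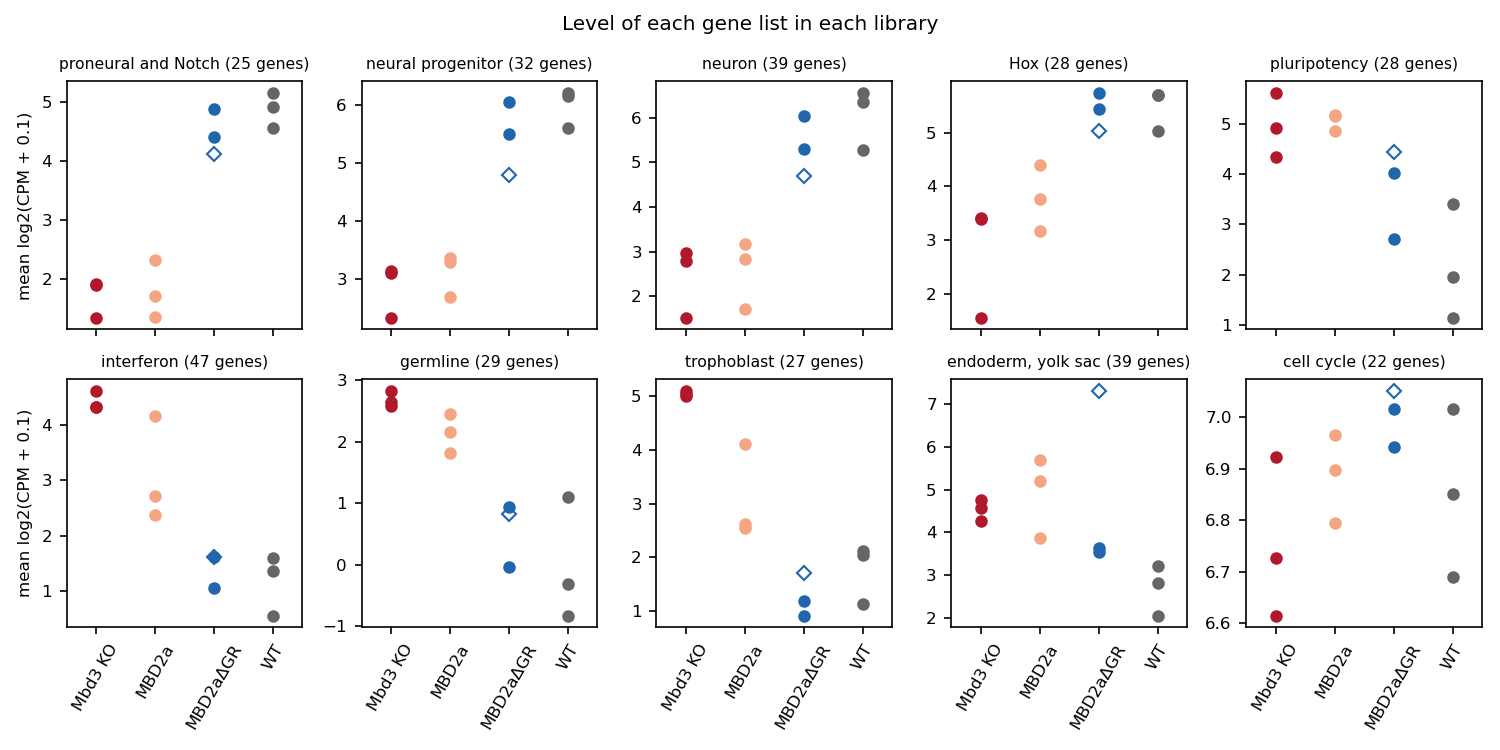
Mean log2(CPM + 0.1) over the tested genes of 10 lists, one symbol per library for *Mbd3* KO, MBD2a, MBD2aΔGR and WT, with s18 of MBD2aΔGR as an open diamond. MBD2aΔGR lies nearer to WT than to *Mbd3* KO for the neural, interferon, germline and trophoblast lists, while s18 alone reaches 7.32 for the endoderm and yolk sac list. For the pluripotency list the values are 5.62, 4.91 and 4.33 in *Mbd3* KO, 2.71, 4.03 and 4.45 in MBD2aΔGR and 1.14, 1.96 and 3.41 in WT. There, s18 lies inside the *Mbd3* KO range. The vertical axes differ between panels.

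*Hox* genes, which give position along the body axis and are induced by retinoic acid, rose in 25 of 28 cases, beside 9.86% of all genes. The median log2 fold change was 2.43. None was called lower, and at an unadjusted p below 0.05, which 53.4% of all genes passed, 26 were higher and 0 lower. The most abundant were *Hoxb8*, *Hoxb7*, *Hoxb9* and *Hoxb2*. *Hoxb8* had 10.2, 66.7 and 76.1 CPM in *Mbd3* KO and 636, 376 and 267 CPM in MBD2aΔGR (log2 fold change 3.06, SE 0.547, adjusted p = 0.000173). It shares sequence in the annotation with *Hoxb7* (log2 fold change 3.02), so reads may not be split cleanly between them. *Hoxb9* rose from 8.005, 41.3 and 44.9 CPM to 764, 441 and 151 CPM (log2 fold change 3.84, SE 0.747, adjusted p = 0.000375) and *Hoxb2* from 35.5, 81.4 and 80.96 CPM to 362, 269 and 180.3 CPM (log2 fold change 2.03, SE 0.328, adjusted p = 6.54e-05). The lines did not overlap for any of these 4, and s04 was again the lowest *Mbd3* KO library by more than 2-fold. Among the 3 members not called were *Hoxb1* and *Hoxc5*. *Hoxc5* had 12.98, 78.3 and 82.9 CPM and 74.2, 70.6 and 52.7 CPM, and its log2 fold change of 0.18 became -0.29 without s04. Against WT, 3 of the 28 genes were called higher, beside 2.69% of all genes. They were *Hoxa10*, *Hoxc9* and *Hoxc10*, which belong to the posterior groups. None of the 3 was called against WT in the 6 libraries alone, and *Hoxa10* and *Hoxc10* were not called against *Mbd3* KO there either. *Hoxc9* had 0.257, 1.46 and 1.24 CPM in *Mbd3* KO, 6.91, 6.85 and 5.87 CPM in MBD2aΔGR and 2.42, 2.12 and 1.02 CPM in WT (log2 fold change against WT 1.83, SE 0.448, adjusted p = 0.0219).

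The 8 largest falls among abundant, well separated genes were *Prl2c2*, *Prl2c3*, *Sohlh1*, *Hand1*, *Serpinb9f*, *Serpinb9g*, *Ldoc1* and *Magea9*. *Prl2c2*, a placental prolactin of trophoblast giant cells, had 69.8, 63.5 and 74.9 CPM in *Mbd3* KO and 0.0307, 0.208 and 0.249 CPM in MBD2aΔGR (log2 fold change -8.68, SE 0.691, adjusted p = 3.74e-08). *Prl2c3* is a near-identical copy, and its values of 82.5, 69.7 and 87.2 CPM and 0.0307, 0.357 and 0.194 CPM are not independent of *Prl2c2*. The MBD2aΔGR libraries held 1, 7 and 9 reads of *Prl2c2* and 1, 12 and 7 of *Prl2c3*. In both genes s16 lay under the floor of 3 reads, so the sizes of these falls are uncertain. *Hand1* (chr11:57642207-57646320), a factor of trophoblast giant cells and heart, fell from 106, 85.5 and 125 CPM to 0.43002, 0.417 and 0.415 CPM (log2 fold change -7.96, SE 0.993, adjusted p = 4.8e-06). *Ldoc1*, a retrotransposon-derived gene that acts in the placenta, fell from 86.6, 74.1 and 121 CPM to 0.399, 0.715 and 0.582 CPM (log2 fold change -7.36, SE 0.881, adjusted p = 3.12e-06). In these genes each MBD2aΔGR library was under 1 CPM and each *Mbd3* KO library above 60 CPM. *Serpinb9f* and *Serpinb9g*, serine protease inhibitor genes of a cluster with close copies, fell with log2 fold changes of -7.81 and -7.60. Their MBD2aΔGR libraries held only 2, 9 and 5 reads and 5, 6 and 7 reads. Both were also called lower than WT, with log2 fold changes of -4.14 and -4.65. *Magea9*, an X-linked gene of the MAGE family with close copies, had a log2 fold change of -7.20. By smallest p-value the falls were led by *Sohlh1*, *Spib*, *Grb14*, *Nek6* and *Ptp4a3*. *Spib*, an ETS factor of lymphoid and dendritic cells, fell from 24.6, 25.1 and 28.3 CPM to 0.0921, 0.536 and 0.305 CPM (log2 fold change -6.36, SE 0.321, adjusted p = 1.82e-10). *Grb14*, an adaptor of the insulin receptor, fell from 27.8, 32.3 and 31.9 CPM to 3.29, 3.72 and 4.54 CPM (log2 fold change -2.99, SE 0.188, adjusted p = 2.3e-09). *Nek6*, a mitotic kinase, fell from 93.998, 79.8 and 89.7 CPM to 19.8, 24.9 and 19.4 CPM (log2 fold change -2.04, SE 0.133, adjusted p = 2.95e-09), and *Ptp4a3*, a phosphatase, from 179, 182 and 182 CPM to 58.4, 51.7 and 53.8 CPM (log2 fold change -1.73, SE 0.107, adjusted p = 2.26e-09).

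Of 27 trophoblast genes tested, 25 fell and 1 rose, beside 15.3% and 9.86% of all genes, with a median log2 fold change of -3.71. The keratins of simple epithelia were among the most abundant. *Krt8* had 833, 872 and 1161 CPM in *Mbd3* KO and 66.9, 66.7 and 380.1 CPM in MBD2aΔGR (log2 fold change -2.48, SE 0.606, adjusted p = 0.00251), and *Krt19* had 381, 363 and 500.05 CPM and 29.1, 22.1 and 105 CPM (log2 fold change -2.99, SE 0.535, adjusted p = 0.000176). In both genes s18 was several-fold above s16 and s17, yet under all *Mbd3* KO libraries. *Krt18* had the same order, with 72.6, 72.9 and 341 CPM in MBD2aΔGR, and was not called in a fit of the 6 libraries alone. *Peg10*, an imprinted gene needed for placenta formation, fell from 5418, 3783 and 3941 CPM to 617, 676 and 752 CPM (log2 fold change -2.68, SE 0.402, adjusted p = 3.06e-05), with little spread in MBD2aΔGR. The trophoblast stem cell factors *Elf5* (-5.41), *Eomes* (-3.16) and *Gata3* (-1.35) fell. *Cdx2*, which acts at the top of this lineage and also patterns the posterior embryo, was not called (-0.42, adjusted p = 0.507). It had 3.92, 5.95 and 5.92 CPM in *Mbd3* KO and 2.21, 1.49 and 8.03 CPM in MBD2aΔGR. Libraries s16 and s17 thus lay below all *Mbd3* KO libraries, and s18 lay above them. *Tfap2a*, which the dorsal neural tube and neural crest share with trophoblast, was the member that rose (log2 fold change 1.97, SE 0.5799, adjusted p = 0.00925). Its lines overlapped, and it was not called in the 6 libraries alone. Against WT only *Wnt7b* of the 27 genes was called (-2.81), beside 5.16% of all genes.

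Interferon signalling passes from receptors to transcription factors that bind response elements in the promoters of antiviral genes. Of 47 interferon-stimulated genes tested, 43 fell in MBD2aΔGR, beside 15.3% of all genes, and the median log2 fold change was -2.44. None rose, and at an unadjusted p below 0.05, which 53.4% of all genes passed, all 47 were lower. In all 47 the lines did not overlap, beside 50.2% of all genes. To show the core of this element, promoter stretches are printed for *Isg15*, *Ifit1* and *Rsad2*. These had the largest falls among called members whose promoter holds the core before the start, so they share it by choice. The stretches are RefSeq sequences of GRCm38.p6, 5′ to 3′ on the gene's strand, with matches to GAAANNGAAA on either strand in capitals. They lie at chr4:156200845-156200926, minus strand, chr19:34640755-34640843, plus strand and chr12:26456533-26456602, minus strand. In *Isg15*, 3 overlapping matches form the capitals.
Isg15: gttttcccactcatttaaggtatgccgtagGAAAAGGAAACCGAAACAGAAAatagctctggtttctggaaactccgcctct
Ifit1: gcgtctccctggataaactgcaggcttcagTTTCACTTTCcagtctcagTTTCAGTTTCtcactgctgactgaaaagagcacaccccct
Rsad2: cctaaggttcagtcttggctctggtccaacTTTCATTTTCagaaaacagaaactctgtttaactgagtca
This core was present in 15 of the 34 interferon genes with a window of 250 bases before to 50 bases after the start (44.1%) and in 3.99% of all 27025 genes with such a window. A match describes the sequence only. Of the interferon genes with a match, 14 of 15 fell, and of those without, 16 of 19.

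*Isg15*, a ubiquitin-like modifier, had 36.9, 28.3 and 27.98 CPM in *Mbd3* KO and 0.399, 0.715 and 0.665 CPM in MBD2aΔGR (log2 fold change -5.70, SE 0.829, adjusted p = 2.38e-05). *Ifit1*, which binds viral RNA, had 27.1, 26.9 and 27.3 CPM and 0.369, 0.745 and 0.831 CPM (log2 fold change -5.37, SE 0.799, adjusted p = 2.93e-05). *Rsad2*, which encodes the antiviral protein viperin, had 40.9, 28.9 and 25.4 CPM and 0.307, 0.774 and 1.22 CPM (log2 fold change -5.34, SE 0.731, adjusted p = 1.28e-05). These 3 were chosen for their promoters and their falls. In WT they had 0.295, 1.05 and 2.34 CPM, 0.349, 2.53 and 1.44 CPM and 0.322, 0.9903 and 0.852 CPM, ranges that overlapped those of MBD2aΔGR. Among the most abundant members, *Bst2*, a tether of budding virus, had 198, 135 and 138 CPM and 19.1, 37.7 and 66.6 CPM (log2 fold change -1.93, SE 0.548, adjusted p = 0.00711). *Trim25* fell from 166, 135 and 151 CPM to 27.98, 47.4 and 84.5 CPM (log2 fold change -1.50, SE 0.352, adjusted p = 0.00183), and in both genes s18 was the highest MBD2aΔGR library. *Eif2ak2*, the RNA-dependent kinase PKR, fell from 87.9, 80.2 and 79.5 CPM to 22.7, 32.5 and 32.7 CPM (log2 fold change -1.49, SE 0.225, adjusted p = 3.24e-05). *Irf1*, a transcription factor of the pathway, fell from 102, 83.8 and 75.1 CPM to 18.7, 43.4 and 35.5 CPM (log2 fold change -1.41, SE 0.458, adjusted p = 0.0163). The transcription factor genes *Stat2* (-0.96, adjusted p = 0.000722) and *Irf9* (-0.99, adjusted p = 1.51e-05) missed the fold threshold by little. Against WT the median log2 fold change of the 47 genes was 0.34.

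Genes of antigen presentation by MHC class I moved in the same direction with a median closer to 0. Of 12 tested, 9 fell, beside 15.3% of all genes, none rose, and the median log2 fold change was -1.21. At an unadjusted p below 0.05, which 53.4% of all genes passed, 11 were lower and 0 higher. The heavy chain gene *H2-D1* fell from 263, 203 and 234 CPM to 50.4, 50.1 and 72.7 CPM (log2 fold change -2.01, SE 0.278, adjusted p = 1.39e-05), and *H2-K1* from 198, 146 and 149 CPM to 64.9, 63.7 and 57.5 CPM (log2 fold change -1.41, SE 0.208, adjusted p = 2.66e-05). *Tapbp*, which loads peptides, had a log2 fold change of -1.03, and *Psmb10*, an immunoproteasome subunit, of -1.15. The peptidase gene *Erap1* was not called (-0.59). The light chain gene *B2m* had 50.001, 69.3 and 76.5 CPM and 29.6, 33.4 and 90.02 CPM. Only s18 was as high as *Mbd3* KO, and the gene was not called (-0.35, adjusted p = 0.33).

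Germline genes are silenced in somatic cells, many of them through methylated CpG-rich promoters. Of 29 tested, 15 fell (51.7%), beside 15.3% of all genes, none rose, and the median log2 fold change was -1.61. At an unadjusted p below 0.05, which 53.4% of all genes passed, 21 were lower and 0 higher. *Sohlh1*, a basic helix-loop-helix factor of germ cells, had 144, 144 and 125 CPM in *Mbd3* KO and 0.123, 0.506 and 0.415 CPM in MBD2aΔGR, beside 0.376, 0.6602 and 0.438 CPM in WT (log2 fold change -8.60, SE 0.429, adjusted p = 1.82e-10). Its partner *Sohlh2* fell from 121, 116 and 122 CPM to 2.43, 10.01 and 7.56 CPM (log2 fold change -4.16, SE 0.846, adjusted p = 0.000558). *Rhox6* fell from 392, 241 and 342 CPM to 2.03, 7.33 and 11.6 CPM (log2 fold change -5.53, SE 0.965, adjusted p = 0.00014), and *Rhox9*, a close copy of this X-linked homeobox gene, from 313, 186 and 246 CPM to 1.97, 8.52 and 12.2 CPM (log2 fold change -5.03, SE 0.972, adjusted p = 0.000357). *Dazl*, an RNA-binding protein of germ cells, fell from 47.1, 39.5 and 29.9 CPM to 1.57, 6.55 and 4.65 CPM (log2 fold change -3.18, SE 0.853, adjusted p = 0.00491). In each of these the lines were separated by several-fold. *Ddx4*, an RNA helicase of germ cells, had 14.2, 9.83 and 8.65 CPM and 5.44, 13.5 and 10.5 CPM, overlapped between the lines and was not called (-0.14, adjusted p = 0.844). *Taf7l* was not called either, with 1.198, 1.73 and 11.2 CPM in MBD2aΔGR, of which only s18 was near *Mbd3* KO. Against WT the median log2 fold change of the list was 0.29.

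To set the member with the largest fall beside a member that was not called, promoter stretches of *Sohlh1* (chr2:25847405-25847498, minus strand) and *Ddx4* (chr13:112652311-112652369, minus strand) are printed from the same RefSeq windows, with the E-box CACGTG, a palindrome that basic helix-loop-helix factors recognise, in capitals.
Sohlh1: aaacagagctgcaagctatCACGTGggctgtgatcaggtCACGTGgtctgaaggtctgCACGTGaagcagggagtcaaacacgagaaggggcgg
Ddx4: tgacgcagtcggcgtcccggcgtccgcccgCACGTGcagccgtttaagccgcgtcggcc
The E-box was present in 13 of the 28 germline genes with a window (46.4%) and in 8.09% of all genes with one. Of those tested, 4 of 13 with the motif fell and 8 of 12 without it. Members that fell were thus found with and without these letters.

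Pluripotency genes are switched off as ESCs leave the naive state. Of 28 tested, 8 fell (28.6%), beside 15.3% of all genes, none rose, and the median log2 fold change was -1.46. At an unadjusted p below 0.05, 12 were lower and 1 higher, and the lines did not overlap for 15 of them, both near the shares of all genes (53.4% and 50.2%). *Esrrb*, an orphan nuclear receptor, fell from 128, 65.3 and 31.98 CPM to 6.91, 16.6 and 14.7 CPM (log2 fold change -2.55, SE 0.554, adjusted p = 0.000975), and *Tdgf1*, a Nodal co-receptor, from 59.3, 27.9 and 24.3 CPM to 1.97, 3.78 and 3.93 CPM (log2 fold change -3.52, SE 0.626, adjusted p = 0.00017). *Tfcp2l1* (-1.71) and *Tbx3* (-1.36) fell as well. The core factors were not called. *Pou5f1*, which encodes OCT4, had 176, 95.3 and 55.04 CPM in *Mbd3* KO and 14.8, 39.3 and 50.2 CPM in MBD2aΔGR (-1.64, SE 0.749, adjusted p = 0.0791). *Nanog* had 164, 84.3 and 40.3 CPM and 6.11, 27.6 and 29.0001 CPM (-2.20, SE 1.11, adjusted p = 0.111). In both genes every MBD2aΔGR library lay below every *Mbd3* KO library, but the libraries of both lines spread over several-fold. *Klf4* had 44.5, 41.2 and 44.2 CPM and 13.2, 13.998 and 153 CPM. The high value of s18 set its log2 fold change of 0.47 (adjusted p = 0.55), which was -1.67 without s18. *Sall4* and *Trim28*, both expressed in many progenitors, were not called (-0.49 and 0.33). Against WT, 5 of the 28 genes were called higher, beside 2.69% of all genes, among them *Klf4* (2.98), *Lin28a* (1.69) and *Sall4* (1.37). The median of the list against WT was 1.33. In WT, *Klf4* had 5.99, 9.19 and 7.60 CPM, and s18 lay much further above these values than s16 and s17. None of the 5 was called in the 6 libraries alone. Against *Mbd3* KO, 4 of the 28 genes fell without s04 or without s16, and 11 without s18. A count of 4 is near the share of all genes, 15.3% in the fit of all libraries. Over all genes, 2455 were called lower without s04 and 2348 without s16.

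Endoderm and yolk sac genes set s18 apart from the other 2 MBD2aΔGR libraries. Of 39 tested, 14 were called higher (35.9%) and 4 lower (10.3%) than in *Mbd3* KO, beside 9.86% and 15.3% of all genes. The median log2 fold change was 1.49. Without s18, 1 was called higher and 12 lower, with a median of -0.71. In a fit of the 6 libraries alone, 1 was called higher and 4 lower. Without s04, 8 were called higher, and without s17, 23. Against WT, 31 were called higher, beside 2.69% of all genes, with a median of 2.97, and none in the 6 libraries alone. The mean log2(CPM + 0.1) of the list was 4.26, 4.56 and 4.77 in *Mbd3* KO, 3.63, 3.53 and 7.32 in MBD2aΔGR and 2.05, 2.83 and 3.23 in WT. Libraries s16 and s17 thus lay below all *Mbd3* KO libraries and above all WT libraries, and s18 lay above all of them. In s13, s14 and s15 of the line labelled MBD2a the mean was 5.19, 3.86 and 5.69. Libraries s13 and s15 thus also lay above all *Mbd3* KO libraries, though below s18. The basement membrane collagen *Col4a1* had 802, 828 and 1056 CPM in *Mbd3* KO and 672, 491 and 10056 CPM in MBD2aΔGR (log2 fold change 2.06, SE 0.781, adjusted p = 0.0366), and a log2 fold change of -0.62 without s18. *Col4a2*, its partner chain, had 693, 596 and 759.9 CPM and 451, 293 and 6378 CPM and was not called (1.80), nor was the laminin *Lamc1* (1.19). *Sparc*, which parietal endoderm makes in large amounts, had 193, 394 and 495 CPM and 225, 216 and 3607 CPM, and its log2 fold change of 1.90 was -0.71 without s18. *Lama1* had 47.8, 135 and 234 CPM and 251, 178 and 2439 CPM. Its lines overlapped, and it was not called without s18. Genes of visceral endoderm and yolk sac showed the same library. *Apoa4* had 2.49, 1.31 and 129.5 CPM in MBD2aΔGR against 0.372, 0.3098 and 0.503 CPM in *Mbd3* KO, *Apoa1* had 3.66, 1.37 and 280.5 CPM and *Afp* had 1.32, 0.625 and 176 CPM. *Lgals2*, *Muc13* and *Spp2*, which also spread over more than 16-fold within MBD2aΔGR, had 0.706, 0.417 and 37.1, 5.498, 2.68 and 152 and 0.307, 0.268 and 46.7 CPM. None of *Apoa4*, *Apoa1*, *Lgals2*, *Muc13* and *Spp2* was called in a fit of the 6 libraries alone.

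**Figure D4:**
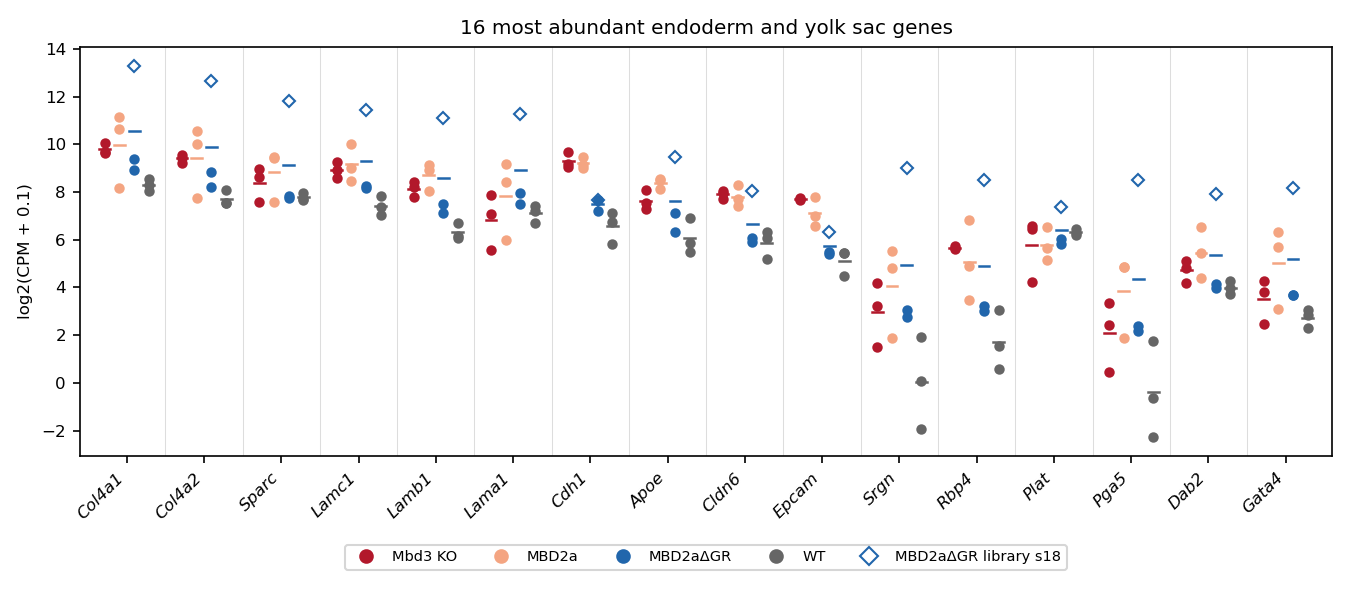
Expression as log2(CPM + 0.1) of the 16 endoderm and yolk sac genes with the highest mean CPM over the 6 libraries, one symbol per library and a bar for the mean of each line. Library s18 of MBD2aΔGR (open diamonds) is the highest of its line for all 16 genes. Libraries s16 and s17 lie under the highest *Mbd3* KO library for all but *Lama1*.

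Some members moved in all 3 libraries. *Cdh1*, the epithelial cadherin, fell from 819.7, 574 and 535 CPM to 148, 201 and 205 CPM (log2 fold change -1.80, SE 0.377, adjusted p = 0.000726). *Sox17*, an endoderm and endothelial factor, rose from 4.66, 10.9 and 18.4 CPM to 63.9, 42.5 and 135 CPM (log2 fold change 2.83, SE 0.485, adjusted p = 0.00012) with all 3 libraries above *Mbd3* KO. Over all genes, 146 differed by more than 16-fold between MBD2aΔGR libraries, and s18 was the highest for 140 of them. Of the genes called against *Mbd3* KO, 72 had such a spread, 68 of them called higher and 68 of them highest in s18. The part of a different cell composition in s18 was not tested.

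Markers of mesenchyme, mesoderm and blood, other cell types that such cultures can hold, were mostly lower. Of 33 mesenchyme and smooth muscle genes, 16 fell (48.5%) and 2 rose (6.06%), beside 15.3% and 9.86% of all genes (median -1.13). In the 6 libraries alone, and without s04, s06, s16 or s17, 1 rose. *Tpm2*, a tropomyosin, fell from 66.3, 66.1 and 90.2 CPM to 8.72, 11.5 and 9.92 CPM (log2 fold change -2.88, SE 0.19002, adjusted p = 3.23e-09) and lay under WT as well, 23.5, 26.3 and 34.01 CPM (-1.48). *Col1a1*, the main collagen of connective tissue, fell from 15.8, 24.9 and 28.1 CPM to 0.952, 1.76 and 0.665 CPM against 61.8, 34.2 and 12.4 CPM in WT (-5.01). *Tpm1* (-1.20) and *Col5a1* (-1.08) fell, *Fn1* was not called (0.16), and *Zeb2*, which acts in neural progenitors and in mesenchyme, rose from 1.94, 4.69 and 5.24 CPM to 109, 72.3 and 32.7 CPM (log2 fold change 4.16, SE 0.5198, adjusted p = 4.8e-06). Against WT, 14 of the 33 genes were called lower and 1 higher, beside 2.47% and 2.69% of all genes. In the 6 libraries alone 2 were lower and 0 higher.

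Of 14 mesoderm and endothelial genes tested, 7 fell (50%) and 3 rose (21.4%), beside 15.3% and 9.86% of all genes (median -1.63). Without s04 or without s05, 1 rose. The endothelial cadherin *Cdh5* fell from 85.2, 146 and 174 CPM to 2.83, 2.77 and 2.08 CPM (log2 fold change -5.73, SE 0.503, adjusted p = 1.17e-07), and at 23.7, 36.1 and 23.3 CPM WT was higher than MBD2aΔGR too (-3.44, adjusted p = 0.000645). *Pecam1* (-2.38), *Kdr*, which encodes FLK1 (-2.13), and *Foxf1*, a mesoderm factor (-4.34), fell, and *Pecam1* and *Kdr* were called lower than WT as well (-1.47 and -2.39). *Wnt3* rose (log2 fold change 3.12, SE 0.448, adjusted p = 2.04e-05), and *Tbx6* was not called (0.22). Of 6 blood and macrophage genes tested, 4 fell, beside 15.3% of all genes (median -1.47). *Csf1r*, a macrophage receptor that trophoblast also expresses, fell from 26.2, 17.1 and 23.5 CPM to 0.0307, 0.0298 and 3.71 CPM (log2 fold change -4.09, SE 0.685, adjusted p = 9.72e-05). Libraries s16 and s17 held 1 read of *Csf1r* each. *Laptm5* fell from 28.7, 24.01 and 24.4 CPM to 5.65, 6.05 and 5.21 CPM (log2 fold change -2.19, SE 0.255, adjusted p = 2.22e-06). *Spi1*, a myeloid factor, fell (-1.79), with only 10, 20 and 11 reads in *Mbd3* KO and 3, 2 and 5 reads in MBD2aΔGR. *Cd14* and *Fcer1g* were not called (0.30 and -0.92). *Cd68* had 3.38, 4.74 and 17.6 CPM in MBD2aΔGR, with s18 in the range of *Mbd3* KO. It was called lower (-1.16), but not in the 6 libraries alone. The defining blood gene *Ptprc* and 5 other members did not pass the filter on low counts, so the list covers blood cells thinly.

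Of 16 genes of NuRD subunits tested, *Mbd2* rose and *Mta3* fell (6.25% each), beside 9.86% and 15.3% of all genes. The other 14 were not called, and reads of the construct can add to *Mbd2*. The median log2 fold change was 0.11 and became -0.029 with scaling by library totals. At an unadjusted p below 0.05, 6 were higher and 4 lower, and the lines did not overlap for 10, near the shares of all genes. *Mta3* had 174, 120.1 and 116 CPM in *Mbd3* KO and 45.6, 63.9 and 82.1 CPM in MBD2aΔGR (log2 fold change -1.10, SE 0.228, adjusted p = 0.000683). *Chd4*, the main remodeling ATPase, had 752, 739.6 and 729 CPM and 1089, 968 and 697 CPM (0.31, adjusted p = 0.189), and *Rbbp7* had 533, 411 and 450.1 CPM and 245, 290.3 and 825 CPM (-0.04, adjusted p = 0.939). *Hdac2* lay at the fold threshold, with a log2 fold change of 1.00 (SE 0.131, adjusted p = 8.15e-06).

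The same genes were tested directly between MBD2aΔGR and the line labelled MBD2a, a comparison that shares the MBD2aΔGR libraries with the one above. Of the proneural and Notch genes, 20 of 25 were called higher in MBD2aΔGR than in MBD2a and 0 lower, and of the neuron genes 37 of 39 and 0. The share of all genes called higher there was 8.02%, and 10.6% were called lower. Interferon genes were called lower in 35 of 47 cases and trophoblast genes in 16 of 27. *Neurod4* had 1.15, 3.62 and 0.204 CPM in the MBD2a libraries, *Pax6* 58.9, 58.7 and 9.99 CPM, *Sohlh1* 8.404, 9.63 and 15.6 CPM and *Isg15* 1.15, 2.68 and 17.6 CPM. For *Neurod4*, the log2 fold change of MBD2aΔGR over MBD2a was 4.39 (SE 0.4998, adjusted p = 1.12e-05), and for *Sohlh1* it was -4.98 (SE 0.4301, adjusted p = 1.67e-06). In a fit of only the 6 libraries of these lines, 1699 genes (11%) were called in place of 3080. There, 16 of the interferon genes and 5 of the trophoblast genes were called lower, and 32 of the neuron genes higher. The median log2 fold change against MBD2a was 2.99 for the proneural and Notch genes, 3.15 for the neuron genes, -1.76 for the interferon genes and -2.13 for the trophoblast genes.

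The 1635 genes called higher and the 2540 called lower were followed in all 8 lines. The other 6 lines entered these calls only through the filter, the scaling and the spread of the shared fit. The choice sets the difference between MBD2aΔGR and *Mbd3* KO, which is no finding. For the genes called higher, the median log2(CPM + 0.1) was 4.76, 4.61 and 4.07 in WT, between 4.20 and 4.63 in MBD3a, between 4.42 and 4.79 in MBD3ΔMBD (MBD3 without the methyl-CpG binding domain) and between 4.00 and 4.76 in the MBD2a line with a point mutation in that domain. In MBD2t it was between 1.75 and 1.96, and in MBD2a between 1.92 and 2.45. The MBD2aΔGR libraries had 4.495, 3.97 and 3.64, and the *Mbd3* KO libraries 1.24, 2.08 and 2.12. For the genes called lower, the median was between -0.33 and 0.55 in the 4 lines first named, between 2.12 and 2.14 in MBD2t and between 1.00 and 1.79 in MBD2a. MBD2a lay between the other lines for the genes called lower and near *Mbd3* KO for the genes called higher.

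**Figure D5:**
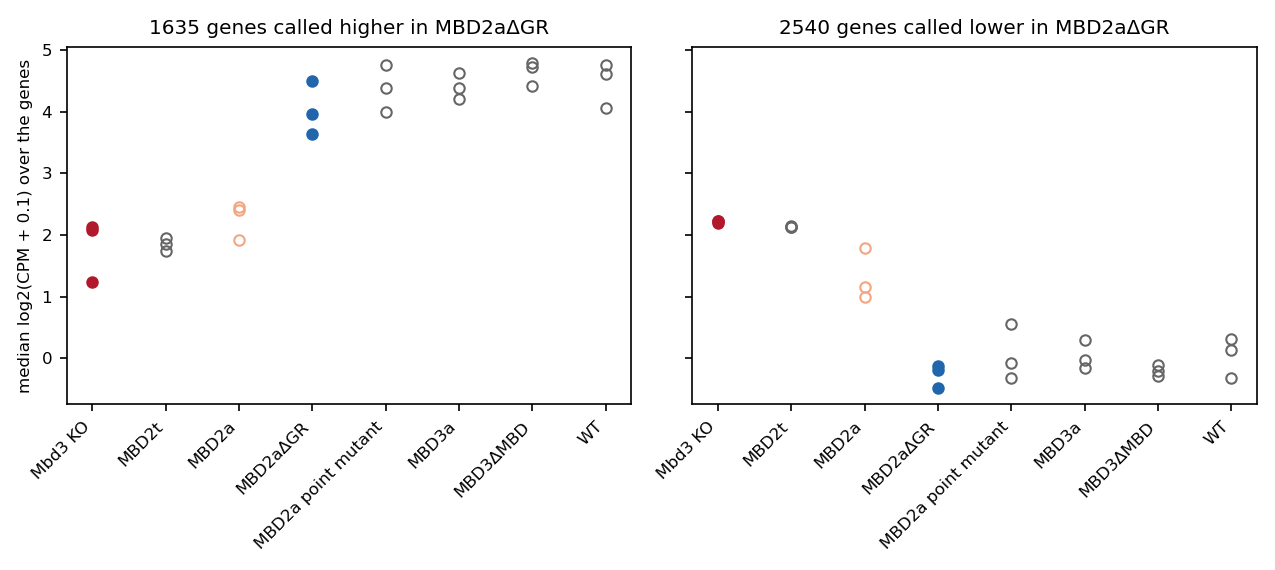
Median log2(CPM + 0.1) over the 1635 genes called higher (left) and the 2540 called lower (right) in MBD2aΔGR against *Mbd3* KO, one symbol per library of all 8 lines. Filled symbols are the lines compared, and open symbols the others. For the genes called higher, MBD2t and MBD2a lie at or under 2.45, and WT, MBD3a, MBD3ΔMBD and the point mutant at or above 4.00.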

How the data were processed

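Poly(A) RNA of mouse NPCs was sequenced in 24 libraries of 8 lines, 3 per line. Per the labels and the study's methods, the authors trimmed reads with Trim Galore, aligned them with STAR to mm9 and counted reads per gene with QuasR. Deposited are read counts per gene as whole numbers, to which the authors applied no normalization. The counting's strand setting is not given in the sources used here. Columns were assigned to lines by the line in their name. They carry library numbers but no replicate numbers. The columns of the MBD2a point mutant name another residue than the labels and entered only the shared fit and the plot of all lines. The ChIP-seq samples were not analysed here.

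After filterByExpr, genes were tested by quasi-likelihood in edgeR 4.0.16 (R 4.3.3, TMM scaling, 1 fit of all libraries, line as the only factor). A call needs a Benjamini-Hochberg adjusted p below 0.05 and a log2 fold change beyond 1 in either direction. CPM uses TMM-scaled totals, levels of lists use log2(CPM + 0.1), and SE is the log2 fold change divided by the root of F. P-values measure the spread between clones, except that the 3 MBD2t libraries of the shared fit come from 1 clone. On simulated counts for 15109 genes, 162 of 200 changed genes were recovered, none in the wrong direction, and 5 unchanged genes were called. Recovered were 42 of 50 with a 4-fold, 49 of 50 with an 8-fold and 22 of 50 with a 2-fold change, which lies at the fold threshold. The simulation gave a gene the same spread in all lines and held no library set apart like s18. It also held fewer changed genes than were called here, so its number of false calls does not carry over to the data.

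Members and the 17 gene lists were chosen with earlier results of these data known. Named are the 8 largest changes and the 5 smallest p-values in each direction among genes called in both fits, not overlapping and averaging 1 or more in log2 CPM. Named too are the 4 most abundant called members and the 2 most abundant exceptions of each list, genes the study names, *Mbd2*, *Mbd3* and the 5 largest changes with a spread above 16-fold within MBD2aΔGR. Other members were added after their values were seen, namely *Hes5*, *Dll4*, *Emx2*, *Slc17a6*, *Isl1*, *Rbfox3*, *Hoxa10*, *Hoxc9*, *Hoxc10*, *Elf5*, *Eomes*, *Gata3*, *Wnt7b*, *Dazl*, *Lin28a*, *Col1a1*, *Sox17*, *Afp*, *Hdac2*, *Grb10* and *Meg3*. Promoters are printed for the largest falls with a motif and for *Ddx4*. Coordinates of genes are those of GENCODE on mm9. Promoter windows are RefSeq sequences of GRCm38.p6.

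Alternatives were a fit of only the lines compared, DESeq2 1.42.0, RLE or total scaling, no filter, no fold threshold, glmTreat, limma 3.58.1 with library weights, and each library left out. A fit without the point mutant, a fit without MBD2t and a fit of the lines compared without s18 were added after the data were seen.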

Additional observations from a re-analysis of the deposited data

How the results depend on the processing

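No paired analysis was possible because the columns carry no replicate numbers. The 4175 genes called against *Mbd3* KO became 3171 in a fit of the 6 libraries, 3114 of them shared, 7776 without a fold threshold and 2289 with glmTreat. Other scalings, filters and tests gave between 4151 and 4537. Leaving out each library gave between 3632 and 4776 genes, and 4313 in the 6-library fit without s18. Against MBD2a, 3080 became 1699, 5755 and 1061 under the same 3 alternatives, and between 2214 and 3847 with a library left out. Against WT, 856 became 13, 1417 and 54, and between 121 (without s18) and 1914 (without s16). Without s01 it was 182, without s02 252 and without MBD2t, whose libraries come from 1 clone, 472. Leaving out MBD2t gave 4000 genes against *Mbd3* KO and 2909 against MBD2a. *Mbd3* KO against WT gave 9990 without a fold threshold, 3469 with glmTreat and between 5126 and 5846 with a library left out. The cause of these moves was not tested beyond the thresholds themselves.

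Signs turned for the median of the NuRD list (-0.029 with library totals) and of the endoderm and yolk sac list, which lay between -0.71 (without s18) and 1.89 (without s16). *Mcm5* was at -0.010 with RLE, -0.064 with library totals and -0.0090 by DESeq2. With each library left out, it lay between -0.043 and 0.16, *Ddx4* between -0.48 and 0.10 (0.09 without s04), *Hoxc5* between -0.29 and 0.50, *Rbbp7* between -0.79 and 0.20 (0.076 without s04, 0.15 without s17) and *Mbd3* between -0.43 and 0.13 (0.066 without s06, 0.067 without s16, 0.12 without s17). For the genes that turned without s18 the ranges were -0.014 to 5.74 for *Apoa1*, -0.70 to 0.61 for *Cd14*, -0.62 to 2.51 for *Col4a1*, -0.87 to 2.25 for *Col4a2*, -1.67 to 0.88 for *Klf4*, -0.74 to 1.59 for *Lamc1*, -0.71 to 2.34 for *Sparc* and -0.67 to 5.60 for *Spp2*. Over all alternatives of the named genes, 22 values turned sign, 63 lost and 27 gained a call, and 1187 did neither.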

Other observations

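The imprinted genes *H19* and *Igf2* were among the most abundant transcripts that fell in MBD2aΔGR. *H19*, a long noncoding RNA, had 9603, 6106 and 7458 CPM in *Mbd3* KO, 257, 362 and 561 CPM in MBD2aΔGR and 868, 1349 and 937 CPM in WT. It was called lower than *Mbd3* KO (log2 fold change -4.29, SE 0.445, adjusted p = 6.15e-07) and lower than WT (-1.42, adjusted p = 0.0353), the latter not in the 6 libraries alone. Its neighbour *Igf2*, a growth factor, fell from 3075, 2098 and 2819 CPM to 103, 119 and 299.7 CPM (log2 fold change -3.94, SE 0.56005, adjusted p = 1.86e-05) and was not called against WT (-1.29). Of 20 imprinted genes tested, 7 fell (35%) and 3 rose (15%), beside 15.3% and 9.86% of all genes. The median log2 fold change was -0.45. *Peg3* fell (-1.13), while *Gnas* (0.29) and *Cdkn1c* (-0.59), the latter from the same end of chromosome 7 as *H19* and *Igf2*, were not called. *Grb10* had 865, 719 and 18.8 CPM in MBD2aΔGR, with s18 far below the other libraries, and *Meg3* had 6.48, 26.6 and 0.554 CPM. Both were picked after their values were seen.

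Of 22 cell cycle genes tested, 2 rose (9.09%, near the 9.86% of all genes) and none fell by the quasi-likelihood test of edgeR. Without s06 or without s16, 1 rose. At an unadjusted p below 0.05, 5 were higher and 2 lower, a smaller share than the 53.4% of all genes. *Ccnd2*, a D-type cyclin of neural progenitors, had 25.4, 72.3 and 78.05 CPM in *Mbd3* KO, 1082, 739 and 604 CPM in MBD2aΔGR and 775, 792 and 766 CPM in WT (log2 fold change 3.79, SE 0.392, adjusted p = 6.15e-07). *Cdkn1b*, a cyclin-dependent kinase inhibitor, rose from 68.6, 52.1 and 48.2 CPM to 141, 127 and 97.997 CPM (log2 fold change 1.12, SE 0.157, adjusted p = 1.72e-05). *Mcm5*, a replication helicase subunit, and *Top2a*, a topoisomerase, were not called (0.06 and 0.54). Of 20 stress and hypoxia genes, 5 rose (25%) and 3 fell (15%), beside 9.86% and 15.3% of all genes. In the 6 libraries alone, where 7% of all genes rose, 3 rose, as without s05, s06 or s17. Heme oxygenase *Hmox1* fell from 312, 258 and 383 CPM to 42.1, 63.02 and 141 CPM (log2 fold change -1.95, SE 0.374, adjusted p = 0.000328) and *Atf3* fell as well (-1.17), while the apoptosis gene *Bbc3* and the hypoxia gene *Bnip3* were called higher (1.02 and 1.12), neither in the 6 libraries alone. *Slc2a1* and *Ldha* were not called (0.28 and 0.63).

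Y-linked genes differed between clones. *Ddx3y* had 7.89, 7.37 and 3.17 CPM in *Mbd3* KO and 0.430, 0.447 and 0.222 CPM in MBD2aΔGR. The lines overlapped for *Eif2s3y*, with 6.86, 4.76 and 1.27 CPM and 1.17, 4.73 and 0.997 CPM. They also overlapped for *Uty*, with 1.94, 2.04 and 0.899 CPM and 0.983, 1.73 and 0.277 CPM. *Xist* was at or under 0.288 CPM in all 6 libraries. The part of chromosome content in any result was not tested.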
